A study of Homo sapiens with 3 samples.

Results

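Genes of mitosis and of DNA replication were described in RRAS2-knockdown breast cancer cells. The group comprised 38 genes of the 24916 on the arrays, 20 that act in mitosis and 18 that act in replication, taken by name and by Ensembl identifier, and all 38 identifiers were found in the deposited table. The table holds identifiers alone, and the names are those of the member list. Total RNA came from MDA-MB-231-Luc cells, a derivative of an established human triple-negative breast cancer line, transduced as a pool with a lentiviral hairpin (TRCN0000047025) that targets RRAS2, the gene of the RAS-like GTPase R-Ras2. The cells were in exponential growth. The 3 arrays are labelled biological replicates 1 to 3 and form 1 group, with the same hairpin and pool in all. Control-hairpin cells belong to the study's design but were not analysed here, so no effect of RRAS2 loss on any gene is given below. The level of RRAS2 and the markers of the cell line were not checked, because no symbol was paired with the other identifiers of the table. The spread given below is that between 3 arrays of 1 pool of cells.

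Dividing cells copy their DNA in S phase and separate the copies in mitosis. For replication, the ORC, CDC6 and CDT1 proteins load the MCM2 to MCM7 helicase ring on origins in G1, the GINS complex turns the helicase on, and polymerase alpha with its primase starts each new strand. For mitosis, cyclin A and cyclin B activate CDK1, Aurora and Polo-like kinases build the spindle, the spindle checkpoint holds anaphase back until every kinetochore is attached, and the anaphase-promoting complex then destroys the cyclins. In human cells E2F factors drive most replication genes in late G1, and a complex of MuvB with B-MYB and FOXM1 drives most mitotic genes in G2, through promoter elements called the E2F site and the CHR (cell cycle genes homology region). In breast tumours these transcripts are read as a measure of proliferation.

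Both gene lists were bright on every array and differed little between replicates. On every array all 38 genes exceeded the median signal, as did 48.6% of all genes. The upper quartile, at 9.04 to 9.05 log2 units, was exceeded on all 3 arrays by 34 of the 38, against 23.9% of all genes, and the exceptions were the kinetochore motor CENPE, the checkpoint kinase TTK, the licensing factor CDT1 and the polymerase subunit POLA1. The 90th percentile was exceeded on all 3 arrays by 20 of the 38 (13 of 20 mitosis genes and 7 of 18 replication genes), against 9.32% of all genes. Values are deposited RMA values, read as log2 units, and 1 unit is a doubling. A signal depends on the probes of its gene, so these shares place the genes among all signals, and the genes are not ranked against each other by amount of mRNA. A bulk value cannot tell fewer cells in S phase or mitosis from less RNA per such cell.

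**Figure D1:**
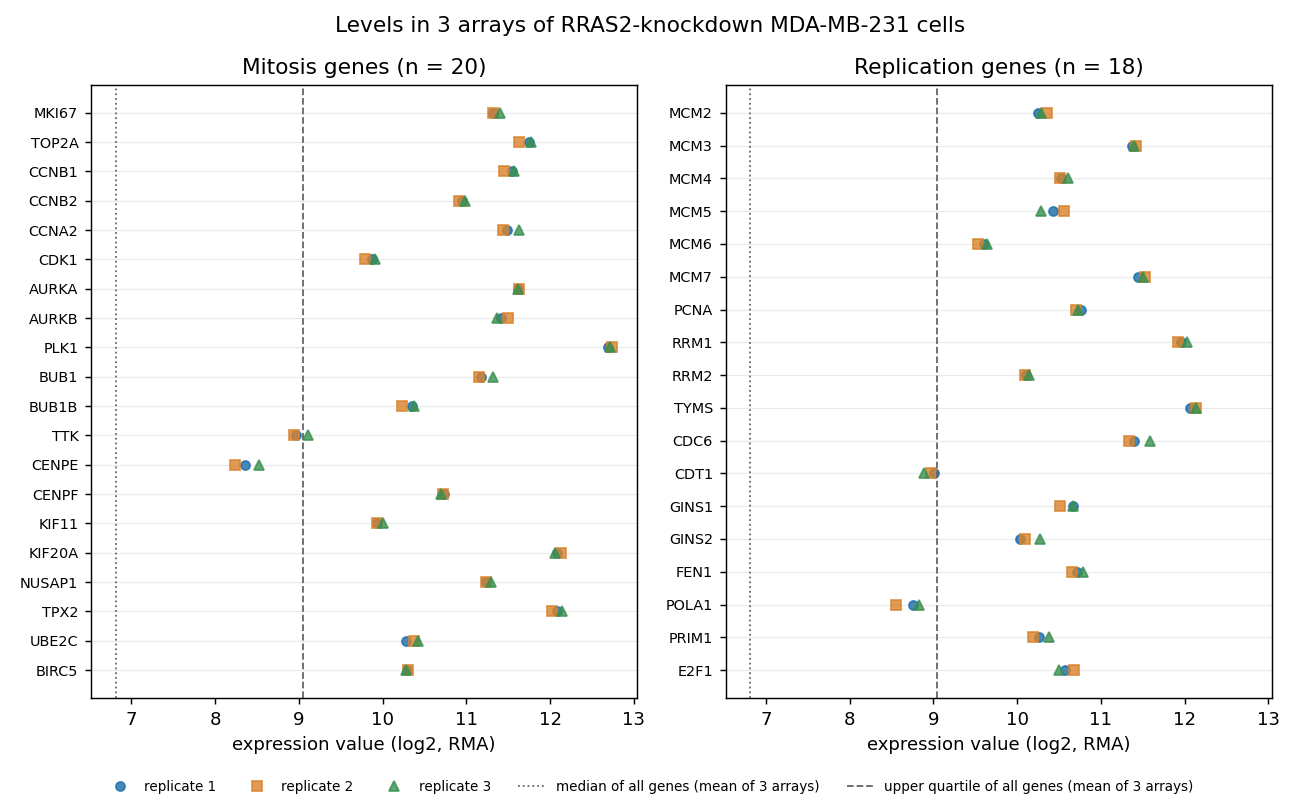
Expression value (x axis, log2 units, RMA) of each of the 20 mitosis genes (left) and 18 replication genes (right) on the arrays of replicates 1 (circles), 2 (squares) and 3 (triangles), with the median and upper quartile of all genes as vertical lines. All points lie right of the median line, and CENPE, TTK, CDT1 and POLA1 have points left of the upper quartile line.

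Among genes at these levels replicate 3 was most often the highest and most often the lowest array, followed by replicate 2. Of the 7920 genes whose mean level lay between the lowest and highest member mean (8.38 to 12.71), a background chosen after the values were seen, it was the highest array for 3483 and the lowest for 3007. Replicate 2 was the highest for 2889 and the lowest for 2724, and replicate 1 was the highest for 1548 and the lowest for 2189. The spread of the members is therefore given with all arrays and without each replicate.

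Across replicates, the 38 genes had a median SD of 0.058 log2 units (0.059 for mitosis genes and 0.057 for replication genes), against 0.086 for all genes. The range over the arrays (highest minus lowest) was 0.115 at the median, a 1.08-fold difference, against 0.164 for all genes, 1.12-fold. The range exceeded 0.3 log2 units (1.23-fold) in 0 of the 38 genes, against 16.8% of all genes, and 0.5 units in 0 of the 38, against 3.52%. Among the 7920 genes at the members' levels the median SD was 0.084, and 14.5% ranged over more than 0.3 units. Without replicate 3 the median SD was 0.040 for the 38 genes, against 0.049 for the genes at their levels and 0.060 for all genes. Without replicate 1 it was 0.079 for the 38 genes, the same as the 0.079 of all genes, against 0.093 for the genes at their levels. Without replicate 2 it was 0.041, against 0.073 for the genes at their levels and 0.072 for all genes. Ranges over 0.2 units (1.15-fold) were found in 5 of the 38 genes, against 38.4% of all genes. These 5 were CENPE in the mitosis list and MCM5, POLA1, CDC6 and GINS2 in the replication list. Without replicate 3, a range over 0.2 units was left in 1 of the 38, against 6.70% of genes at the members' levels and 15.2% of all genes. Without replicate 2 it was also left in 1, against 19.7% of genes at the members' levels and 21.4% of all genes. Without replicate 1 it was left in 4 of the 38, against 29.9% of genes at the members' levels and 6236 of all 24916 genes.

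**Figure D2:**
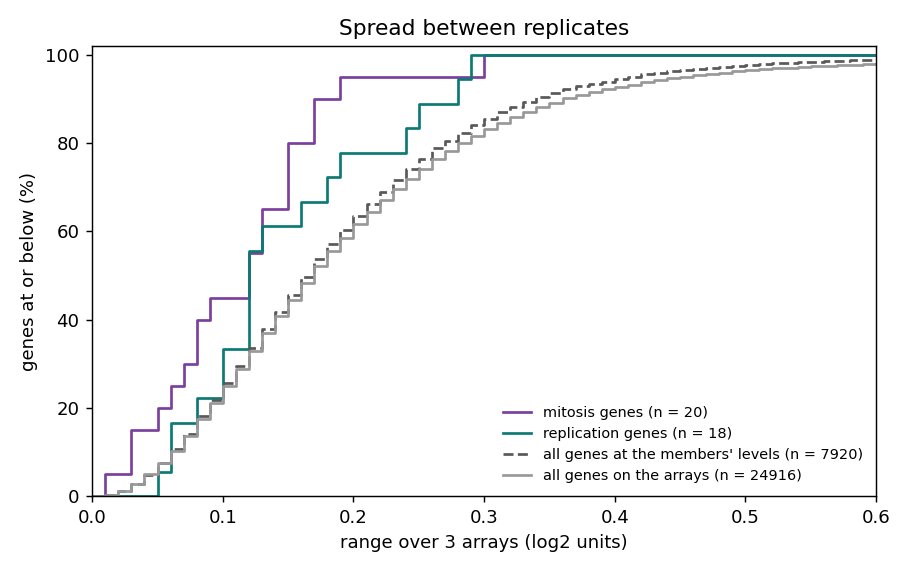
Cumulative share of genes (y axis, %) against the range over the 3 arrays (x axis, log2 units) for the 20 mitosis genes, the 18 replication genes, the 7920 genes at the members' levels and all 24916 genes. Both member curves reach 100% before 0.31 units, where the curves of the other genes lie lower.

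Promoter sequences were read for control elements known from genes of these 2 classes. RefSeq promoter windows (build GRCh38.p14, 250 bases before to 50 bases after a start site, the start site counted as base 1) were matched by symbol for 31 of the 38 genes, 15 of mitosis and 16 of replication. AURKA, TTK, TPX2, UBE2C, BIRC5, MCM4 and MCM5 had no entry in the table used. Letters were searched on both strands, and a gene with several start sites counted once if any window held the match. The CHR letters TTTGAA were found in 9 of 15 mitosis genes and in 1 of 16 replication genes, RRM1, against 18.2% of the 27305 genes with a window (15.2% of the 35116 windows). The E2F-type letters TTTNNCGC, with N any base, were found in 2 of 15 mitosis genes (CDK1 and NUSAP1) and in 12 of 16 replication genes, against 8.23% of genes (6.89% of windows). The CCAAT letters, which NF-Y binds, were found in 13 of 15 mitosis genes and 12 of 16 replication genes, against 39.7% of genes (34.6% of windows). Among protein-coding genes alone, a background added after the data were seen, the shares were 15.8% for CHR, 10.8% for E2F-type and 42.1% for CCAAT. In the member windows, 2 matches of different motifs overlapped, in MKI67 (CHR and CCAAT) and MCM7 (E2F-type and CCAAT). A match is a run of letters and is not shown to be bound.

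Promoters are printed whole for CCNB2 and PLK1, which have the CHR at the same position, for CDK1, which holds both motifs, and for 3 replication genes, CDC6 with a single E2F-type match, MCM6 with matches on both strands and E2F1, itself an E2F factor. Each is on the gene's strand, 5′ to 3′, in lower case, with every CHR, E2F-type and CCAAT match on either strand in capitals. CCNB2 and PLK1 have TTTGAA at bases -29 to -24, and the CDK1 window holds it at bases -13 to -8 and at 2 further places. MCM6 has 2 E2F-type pairs in which the matches of both strands overlap into 1 run, and CDC6 has its single one at bases 8 to 15.
CCNB2 (chr15:59104896-59105195, + strand): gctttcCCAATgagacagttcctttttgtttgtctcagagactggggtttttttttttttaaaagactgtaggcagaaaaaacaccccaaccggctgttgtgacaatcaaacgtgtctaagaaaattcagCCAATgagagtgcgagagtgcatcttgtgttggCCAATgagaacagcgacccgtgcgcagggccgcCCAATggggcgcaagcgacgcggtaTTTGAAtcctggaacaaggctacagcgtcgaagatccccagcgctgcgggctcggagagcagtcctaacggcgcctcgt
PLK1 (chr16:23678639-23678938, + strand): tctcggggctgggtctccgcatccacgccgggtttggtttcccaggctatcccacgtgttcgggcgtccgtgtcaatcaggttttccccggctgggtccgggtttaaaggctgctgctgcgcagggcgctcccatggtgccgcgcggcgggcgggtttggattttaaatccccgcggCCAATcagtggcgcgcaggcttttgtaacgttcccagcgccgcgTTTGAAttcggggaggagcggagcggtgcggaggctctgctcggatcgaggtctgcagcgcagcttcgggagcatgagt
CDK1 (chr10:60778228-60778527, + strand): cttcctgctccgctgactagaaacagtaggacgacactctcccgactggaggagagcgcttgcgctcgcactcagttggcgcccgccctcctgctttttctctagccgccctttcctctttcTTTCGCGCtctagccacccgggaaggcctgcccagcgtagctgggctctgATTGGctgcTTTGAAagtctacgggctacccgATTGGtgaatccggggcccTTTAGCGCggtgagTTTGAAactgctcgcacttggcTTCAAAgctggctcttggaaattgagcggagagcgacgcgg
MCM6 (chr2:135876394-135876693, - strand): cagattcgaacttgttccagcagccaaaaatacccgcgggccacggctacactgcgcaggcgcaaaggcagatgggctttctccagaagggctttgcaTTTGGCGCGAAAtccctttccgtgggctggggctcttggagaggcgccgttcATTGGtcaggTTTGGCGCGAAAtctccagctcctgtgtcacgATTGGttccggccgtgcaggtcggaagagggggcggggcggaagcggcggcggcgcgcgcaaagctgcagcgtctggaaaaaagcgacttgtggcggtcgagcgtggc
CDC6 (chr17:40287629-40287928, + strand): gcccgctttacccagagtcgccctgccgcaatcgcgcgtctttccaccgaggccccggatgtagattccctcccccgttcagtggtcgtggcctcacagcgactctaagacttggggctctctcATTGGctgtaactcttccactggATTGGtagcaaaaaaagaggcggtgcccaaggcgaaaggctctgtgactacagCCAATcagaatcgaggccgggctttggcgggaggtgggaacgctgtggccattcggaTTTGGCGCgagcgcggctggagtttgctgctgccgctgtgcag
E2F1 (chr20:33686336-33686635, - strand): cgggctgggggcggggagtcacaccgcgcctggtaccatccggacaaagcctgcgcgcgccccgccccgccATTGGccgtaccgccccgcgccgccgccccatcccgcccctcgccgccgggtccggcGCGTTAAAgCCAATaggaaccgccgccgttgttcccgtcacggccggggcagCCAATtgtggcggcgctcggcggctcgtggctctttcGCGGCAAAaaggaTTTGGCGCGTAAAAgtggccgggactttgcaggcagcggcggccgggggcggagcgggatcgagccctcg

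Windows of 30 bases around the match nearest the start site let the other holders be compared. They are written on the strand that reads the motif, which is in capitals, CHR in the first 6 lines and E2F-type in the other lines. MKI67 has a CHR starting at base -29, the same base as in CCNB2 and PLK1. BUB1B and KIF11 have it within a few bases of that place, starting at -23 for BUB1B and -28 for KIF11, while CENPF and NUSAP1 have it after the start site and TOP2A at -151. Of the 10 genes with a CHR, 6 had the nearest match starting in the 60 bases before the start site, as had 8 of the 14 with an E2F-type match. In the E2F-type match nearest the start site, MCM2, MCM3, MCM6 and MCM7 share the run TTTCGCGC, GINS1, POLA1, CDC6 and NUSAP1 share TTTGGCGC, and TYMS, PCNA, CDT1 and GINS2 share TTTCCCGC.
BUB1B (chr15:40161034-40161063, + strand): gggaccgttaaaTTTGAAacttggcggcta
KIF11 (chr10:92593090-92593119, - strand): tcggcgcctcaaTTTGAAaaagagacagag
MKI67 (chr10:128126435-128126464, - strand): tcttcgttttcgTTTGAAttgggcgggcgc
NUSAP1 (chr15:41332882-41332911, + strand): tggcgccagggaTTTGAAccgcgctgacga
CENPF (chr1:214603215-214603244, + strand): ccggtggcggctgcgggcagTTTGAAttag
TOP2A (chr17:40418030-40418059, + strand): ggccggggtttgTTTGAAtaaaccaatcag
MCM2 (chr3:127598402-127598431, + strand): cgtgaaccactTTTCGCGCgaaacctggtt
MCM3 (chr6:52284728-52284757, - strand): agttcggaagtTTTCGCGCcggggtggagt
MCM7 (chr7:100101388-100101417, - strand): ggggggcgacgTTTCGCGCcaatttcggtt
GINS1 (chr20:25407667-25407696, - strand): ccgctccgcgcTTTGGCGCcgaacaaagct
POLA1 (chrX:24693770-24693799, - strand): gcggacgcgcgTTTGGCGCcctgtgatgac
TYMS (chr18:657603-657632, - strand): tccgcgcgcctTTTCCCGCggccgtcccgc
PCNA (chr20:5126663-5126692, + strand): aacgcacgcctTTTCCCGCccctgacgctg
CDT1 (chr16:88803743-88803772, - strand): ttcccgccaaaTTTCCCGCgggcgccctgg
GINS2 (chr16:85688967-85688996, + strand): gcggccgccgtTTTCCCGCcacggcgagag

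**Figure D3:**
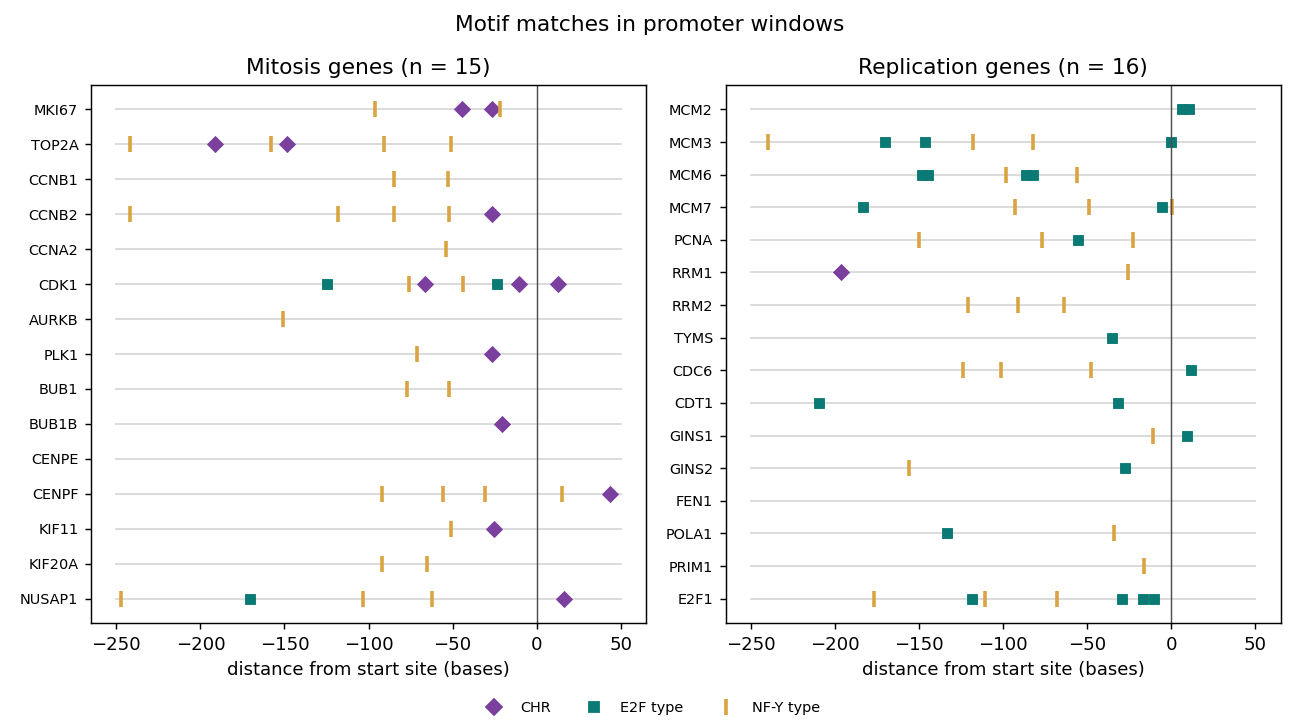
Position (x axis, bases from the start site) of CHR (diamonds), E2F-type (squares) and CCAAT, or NF-Y type (ticks), matches in 1 promoter window of each of 15 mitosis genes (left) and 16 replication genes (right); of genes with several start sites the window with most CHR and E2F-type matches is drawn. Diamonds lie in 9 genes on the left and 1 on the right, squares in 2 genes on the left and 12 on the right.

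Within the mitosis list, the CDK1 module kept 1 order on the arrays. CDK1 (ENSG00000170312), the kinase that starts mitosis, had 9.87, 9.79 and 9.91 in replicates 1, 2 and 3 (9.85 ± 0.060, mean and SD of n = 3). Its partners had 11.55, 11.45 and 11.57 for cyclin B1, CCNB1 (ENSG00000134057), 10.95, 10.91 and 10.98 for cyclin B2, CCNB2 (ENSG00000157456), and 11.48, 11.44 and 11.63 for cyclin A2, CCNA2 (ENSG00000145386), in the same order of replicates. Replicate 3 was the highest and replicate 2 the lowest array for all 4 genes, in 4 settings of the values (as deposited, and after quantile normalisation, median centring or cyclic loess). That order was not particular to these genes. As deposited it was held by 20 of the 38 members, against 20.1% of all genes and 27.1% of the genes at the members' levels. The ranges ran from 0.070 in CCNB2 to 0.188 log2 units in CCNA2, so the largest difference was 1.14-fold. Of these genes CCNB2 and CDK1 hold the CHR shown above, and CCNB1 and CCNA2 do not hold its exact letters in the window.

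The spindle checkpoint kinases followed the same order. BUB1 (ENSG00000169679), which marks kinetochores, was at 11.17 in replicate 1, 11.15 in replicate 2 and 11.32 in replicate 3. BUB1B (ENSG00000156970), which encodes BubR1, the part of the checkpoint complex that blocks the anaphase-promoting complex, was at 10.35 in replicate 1, 10.23 in replicate 2 and 10.38 in replicate 3. TTK (ENSG00000112742), the Mps1 kinase at the top of the checkpoint, was at 8.97 in replicate 1, 8.94 in replicate 2 and 9.11 in replicate 3. Replicate 3 was the highest for all 3 genes in each of the 4 settings. It was the highest for 35.2% of all genes as deposited and 40.6% after median centring. Among the genes at the members' levels it was the highest for 44.0% as deposited. Replicate 2 was the lowest for all 3 in each setting but median centring, where BUB1 was lowest in replicate 1. As deposited, replicate 2 was the lowest for 34.7% of all genes and 34.4% of the genes at the members' levels. Replicate 3 exceeded replicate 2 by 0.162 log2 units for BUB1, 0.145 for BUB1B and 0.170 for TTK.

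The 2 kinetochore proteins differed from each other. CENPE (ENSG00000138778), a plus-end motor that carries chromosomes to the spindle equator, had the widest range of the 38 genes as deposited, at 8.36 in replicate 1, 8.24 in replicate 2 and 8.53 in replicate 3 (8.38 ± 0.148, mean and SD of n = 3, range 0.295, 1.23-fold). CENPF (ENSG00000117724), a large coiled-coil protein of the outer kinetochore, had one of the narrowest, at 10.73 in replicate 1, 10.72 in replicate 2 and 10.70 in replicate 3 (range 0.027). CENPE kept replicate 3 as its highest and replicate 2 as its lowest array in all 4 settings, while the CENPF arrays lay within 0.027 units and have no order beyond that.

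As deposited, the mitotic kinases and the passenger complex did not have the order of the cyclins, though AURKA had it after quantile normalisation. AURKA (ENSG00000087586), the Aurora kinase of the spindle poles, was at 11.62 in replicate 1, 11.63 in replicate 2 and 11.62 in replicate 3. Its range was 0.005 log2 units as deposited, the narrowest of the 38 genes there, 0.029 after quantile normalisation, 0.032 after median centring and 0.015 after cyclic loess. PLK1 (ENSG00000166851), which drives centrosome maturation and mitotic entry, was at 12.69 in replicate 1, 12.74 in replicate 2 and 12.71 in replicate 3 (range 0.043). As deposited, both ranges were under the median range of the 38 genes, 0.115 log2 units. The order of the arrays of AURKA and PLK1 changed with the normalisation, so their arrays were not told apart. AURKB (ENSG00000178999), the Aurora kinase of the chromosomal passenger complex, was at 11.41 in replicate 1, 11.50 in replicate 2 and 11.37 in replicate 3 and was higher in replicate 2 than in both others in all 4 settings. Its partner survivin, BIRC5 (ENSG00000089685), was at 10.29 in replicate 1, 10.30 in replicate 2 and 10.28 in replicate 3 (range 0.022). Replicate 3 lay 0.129 log2 units below replicate 2 for AURKB, opposite to the cyclins and checkpoint genes.

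The arrays of the spindle motors and microtubule binders lay close together. KIF11 (ENSG00000138160), the motor that pushes the poles apart, had 9.93, 9.93 and 10.01 in replicates 1, 2 and 3, and TPX2 (ENSG00000088325), which activates Aurora A on the spindle, had 12.08, 12.02 and 12.14. NUSAP1 (ENSG00000137804), which bundles spindle microtubules, had 11.24, 11.24 and 11.29, and KIF20A (ENSG00000112984), a motor of the central spindle needed for cytokinesis, had 12.08, 12.13 and 12.06. Replicate 3 was the highest array for KIF11, TPX2 and NUSAP1 and the lowest for KIF20A, whose lowest array was replicate 1 after median centring. The ranges of these 4 genes were 0.051 to 0.116 log2 units. MKI67 (ENSG00000148773), which encodes the Ki-67 antigen scored in breast tumours, was at 11.32 in replicate 1, 11.32 in replicate 2 and 11.40 in replicate 3 (11.35 ± 0.049, mean and SD of n = 3). TOP2A (ENSG00000131747), the topoisomerase that untangles sister chromatids, was at 11.75 in replicate 1, 11.63 in replicate 2 and 11.77 in replicate 3 (11.71 ± 0.077, mean and SD of n = 3). UBE2C (ENSG00000175063), the ubiquitin-conjugating enzyme of the anaphase-promoting complex, was at 10.28 in replicate 1, 10.38 in replicate 2 and 10.42 in replicate 3 (10.36 ± 0.073, mean and SD of n = 3). All 3 of these were highest in replicate 3, in all 4 settings, but their lowest arrays differed, replicate 2 for TOP2A and replicate 1 for UBE2C. Over the same settings replicate 3 was the highest for 35.2% to 40.6% of all genes.

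**Figure D4:**
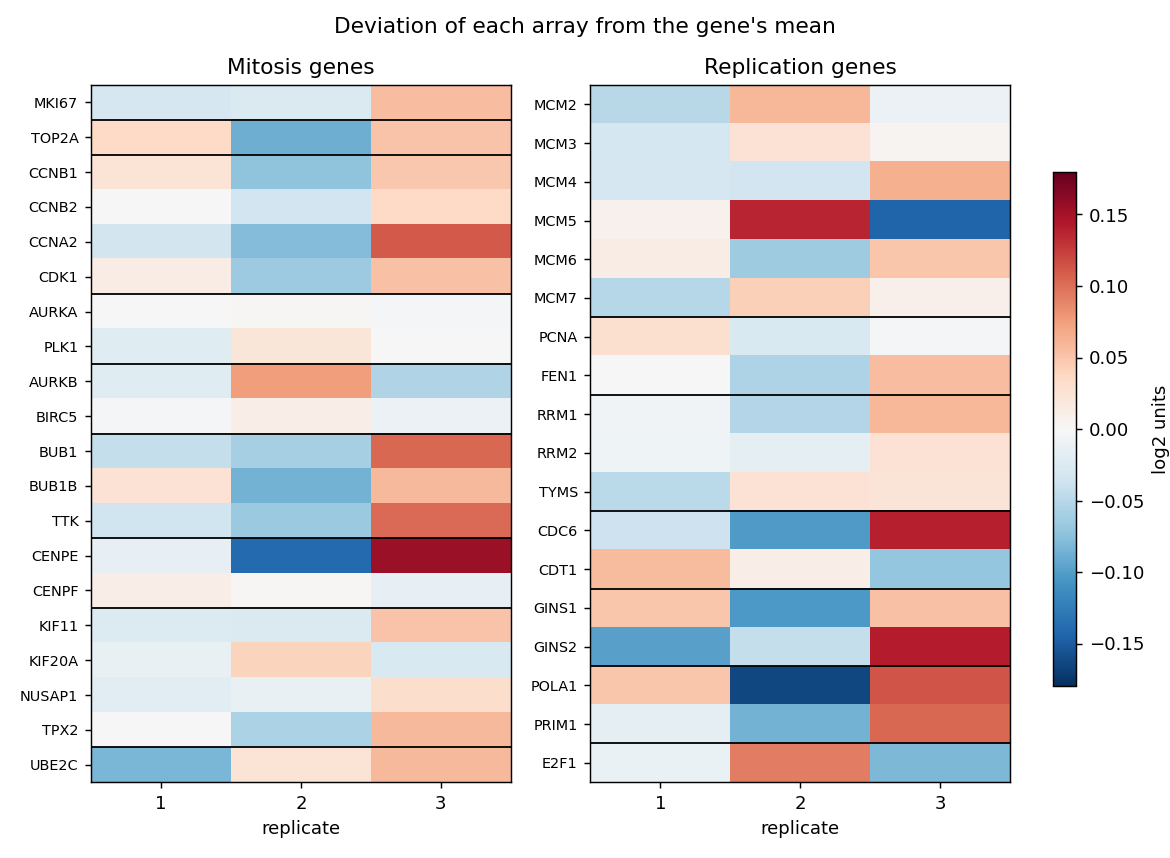
Deviation of each array from the gene's mean (colour, log2 units, red above and blue below) for the mitosis genes (left) and replication genes (right), with columns for replicates 1 to 3 and black lines between roles. Replicate 3 is the highest array in 14 of 20 mitosis genes and 10 of 18 replication genes, against 35.2% of all genes and 44.0% of the genes at the members' levels. MCM5, AURKB and E2F1 have their highest value in replicate 2.

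In the replication list the subunits of 1 complex did not share one order of the arrays. The 6 subunits of the MCM ring, the helicase that unwinds DNA at the fork, showed 3 orders of the arrays as deposited. Some of these orders rest on small differences. Replicate 2 minus replicate 1 was -0.004 log2 units for MCM4, which was lowest in replicate 1 after median centring. Replicate 3 minus replicate 2 was -0.02 for MCM3. The median range of the genes at the members' levels was 0.161, which only MCM5 exceeded. MCM2 (ENSG00000073111) had 10.25, 10.36 and 10.29 in replicates 1, 2 and 3, MCM3 (ENSG00000112118) had 11.37, 11.42 and 11.40, and MCM7 (ENSG00000166508) had 11.44, 11.53 and 11.50. These 3 were highest in replicate 2 and lowest in replicate 1 in all 4 settings. As deposited that order was held by 12.3% of all genes and 10.8% of the genes at the members' levels. MCM4 (ENSG00000104738) had 10.52, 10.51 and 10.61 and MCM6 (ENSG00000076003) had 9.60, 9.53 and 9.64, both highest in replicate 3 in all 4 settings. MCM5 (ENSG00000100297) had 10.43, 10.56 and 10.28 (10.42 ± 0.141, mean and SD of n = 3) and was highest in replicate 2 and lowest in replicate 3 in all 4 settings. Its range of 0.282 log2 units (1.22-fold) was the second widest of the 38 genes as deposited, while the ranges of the other 5 subunits were 0.057 to 0.113. Over the 6 subunits the median difference of replicate 3 minus replicate 2 was -0.027 log2 units.

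Origin licensing and helicase activation held some of the wider ranges. CDC6 (ENSG00000094804), the ATPase that loads the MCM ring, was at 11.40 in replicate 1, 11.34 in replicate 2 and 11.58 in replicate 3 (11.44 ± 0.125, mean and SD of n = 3). CDT1 (ENSG00000167513), its partner in loading, was at 9.01 in replicate 1, 8.97 in replicate 2 and 8.89 in replicate 3 (8.96 ± 0.065, mean and SD of n = 3). Thus CDC6 was highest and CDT1 lowest in replicate 3, in all 4 settings, and both windows hold an E2F-type match. GINS2 (ENSG00000131153) was at 10.03 in replicate 1, 10.09 in replicate 2 and 10.27 in replicate 3 (10.13 ± 0.125, mean and SD of n = 3), and GINS1 (ENSG00000101003), another subunit of the same complex, was at 10.67 in replicate 1, 10.51 in replicate 2 and 10.67 in replicate 3 (10.62 ± 0.089, mean and SD of n = 3). Both GINS genes were higher in replicate 3 than in replicate 2 in all 4 settings, but only GINS2 kept replicate 3 as its highest array in all 4, since GINS1 was highest in replicate 1 after quantile and cyclic loess normalisation.

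The enzymes that start and finish strands were higher in replicate 3 than in replicate 2. POLA1 (ENSG00000101868), the catalytic subunit of polymerase alpha, was at 8.76 in replicate 1, 8.55 in replicate 2 and 8.83 in replicate 3 (8.71 ± 0.145, mean and SD of n = 3, range 0.277, 1.21-fold). PRIM1 (ENSG00000198056), the primase subunit that makes the RNA primer, was at 10.26 in replicate 1, 10.19 in replicate 2 and 10.38 in replicate 3 (10.28 ± 0.096, mean and SD of n = 3). Both had replicate 3 as the highest and replicate 2 as the lowest array in all 4 settings. As deposited this order was held by 20.1% of all genes and 27.1% of the genes at the members' levels. FEN1 (ENSG00000168496), the nuclease that trims Okazaki fragments, had 10.72, 10.66 and 10.78 in replicates 1, 2 and 3 and kept the same order in all 4. PCNA (ENSG00000132646), the sliding clamp, had 10.76, 10.70 and 10.73, a range of 0.056 units, and was lowest in replicate 2 in all 4 settings.

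The arrays of the genes of nucleotide supply lay close together, as did those of the spindle motors. RRM1 (ENSG00000167325), the large subunit of ribonucleotide reductase, had 11.96, 11.92 and 12.03 in replicates 1, 2 and 3, and RRM2 (ENSG00000171848), the small subunit made in S phase, had 10.10, 10.09 and 10.14. TYMS (ENSG00000176890), thymidylate synthase, had 12.06, 12.13 and 12.13. The ranges were 0.044 to 0.113 log2 units, and replicate 3 was higher than replicate 1 for all 3 genes in all 4 settings. Over all genes replicate 3 was higher than replicate 1 for 47.5% as deposited and 57.4% after median centring. E2F1 (ENSG00000101412), a transcription factor of replication genes, was at 10.57 in replicate 1, 10.68 in replicate 2 and 10.50 in replicate 3 (10.58 ± 0.087, mean and SD of n = 3). Like MCM5, E2F1 was highest in replicate 2 and lowest in replicate 3 in all 4 settings. E2F1 and CDC6, whose windows are printed above, differed in opposite directions between replicates 2 and 3, by -0.173 log2 units for E2F1 and 0.242 for CDC6. Genes with an E2F-type match went both ways. Of the 12 such replication genes, E2F1 among them, 6 were higher in replicate 3 than in replicate 2 as deposited, against 49.8% of all genes. MCM2, MCM3, MCM7, TYMS and CDT1 were lower, as E2F1 was.

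Over both lists, replicate 3 tended to be the highest array and replicate 2 the lowest, by small amounts. Replicate 3 was the highest for 24 of the 38 genes, against 35.2% of all genes and 44.0% of the genes at the members' levels. Replicate 2 was the lowest for 21, against 34.7% and 34.4%. Replicate 2 was the highest for 11 (all genes: 33.0%) and replicate 1 for 3 (all genes: 31.8%), while replicate 1 was the lowest for 9 (all genes: 27.4%) and replicate 3 for 8 (all genes: 37.9%). The single order with replicate 3 highest, then 1, then 2 was found for 20 of the 38 (11 mitosis genes and 9 replication genes), against 20.1% of all genes and 27.1% of the genes at the members' levels. Replicate 3 was higher than replicate 2 for 25 of 38 genes, against 49.8% of all genes and 51.3% of the genes at the members' levels. It was higher than replicate 1 for 29 of 38, against 47.5% and 54.7%. Replicate 2 was higher than replicate 1 for 15 of 38, against 48.1% and 53.4%. The median of replicate 3 minus replicate 2 was 0.079 log2 units (1.06-fold) for mitosis genes and 0.071 (1.05-fold) for replication genes, against -0.001 for all genes. The median of replicate 3 minus replicate 1 was 0.038 for mitosis genes and 0.048 for replication genes, against -0.010 for all genes. The median of replicate 2 minus replicate 1 was -0.013 for mitosis genes and -0.028 for replication genes, against -0.006 for all genes, and both became positive with arrays centred on their medians (0.017 for mitosis genes and 0.002 for replication genes). For the genes at the members' levels the medians as deposited were 0.006 (replicate 3 minus 2), 0.018 (3 minus 1) and 0.008 (2 minus 1).

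**Figure D5:**
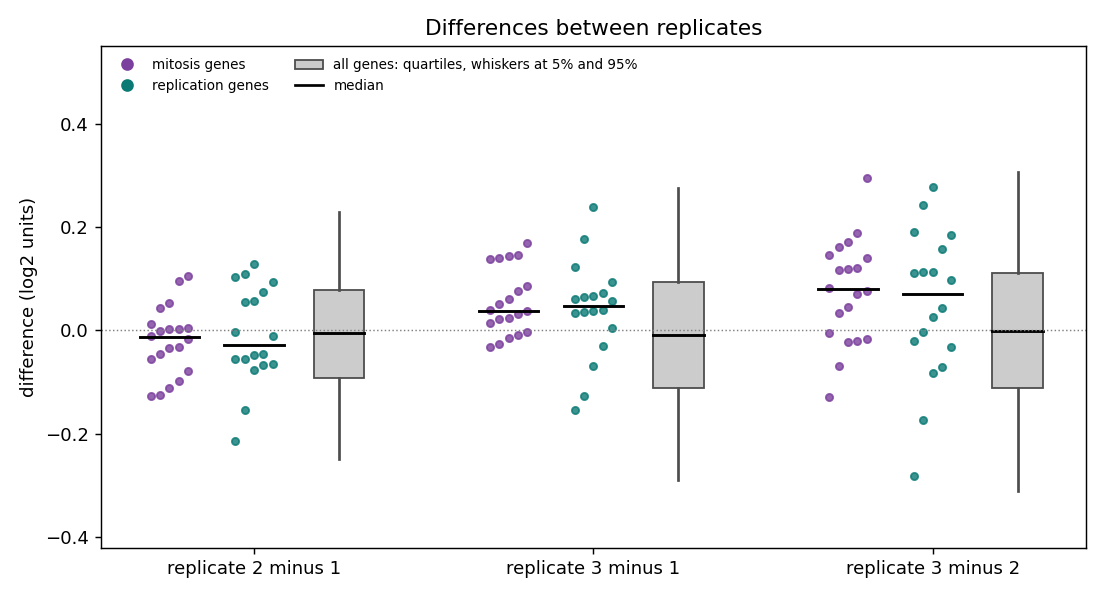
Difference between 2 replicates (y axis, log2 units) for each mitosis gene (purple) and replication gene (green) with their medians, beside all 24916 genes (box at the quartiles, whiskers at 5% and 95%). For replicate 3 minus 2 the member medians lie at 0.079 and 0.071, and that of all genes at -0.001.

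Genes with and without the promoter letters were also set side by side for this difference. Replicate 3 was higher than replicate 2 for 7 of the 9 mitosis genes with a CHR, with a median of 0.077 log2 units, and for 4 of the 6 without, with a median of 0.142. It was higher for 6 of the 12 replication genes with an E2F-type match, with a median of 0.011, and for 4 of the 4 without (RRM1, RRM2, FEN1 and PRIM1), with a median of 0.112. With the CCAAT letters, replicate 3 was higher for 9 of 13 mitosis genes (median 0.077) and 9 of 12 replication genes (median 0.113). Without them it was higher for 2 of 2 mitosis genes (median 0.22) and 1 of 4 replication genes (median -0.037). Replicate 3 was higher than replicate 2 for 49.8% of all genes and 51.3% of the genes at the members' levels. These member counts are small and no test was made. The 3 arrays form 1 group, so no test between arrays was possible, and the 38 genes are no replicates of a condition.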

How the data were processed

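The authors deposited log2 values of 3 Affymetrix arrays, 1 for each of 3 biological replicates of 1 group. Per the labels' protocols, RNA was isolated with Trizol and biotin-labelled, and per the submitters' processing notes RMA and affy were used. RMA gives log2 output, and the deposited table names no scale of its own. How probes were joined into genes, and on which array model and genome build, is not given in the sources used here. RMA draws the arrays towards a common distribution, so a change in total RNA cannot be seen.

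The members and lists were chosen with earlier results of these data known. All 38 members are named, each by its values on every array, or its range and counts. The reference gene table held 59792 genes with an Ensembl identifier for 0 of them, so the planned lists of other cell cycle genes and cell type markers were not used. From the deposited values, each gene's SD, range, order of arrays and 3 pairwise differences were computed over all 24916 genes, and promoter letters were counted. Tested on simulated data of 24916 genes, these steps found all 200 genes that had been shifted by 1 log2 unit. That shift exceeds every range of the 38 members, of which the widest was 0.295 log2 units as deposited. The simulation therefore does not show whether differences as small as those given here would be found. No test of significance was made, because there is 1 group. Depth is not defined for arrays, and n = 3 limits the precision. The alternatives were quantile normalisation, centring on array medians, cyclic loess, other limits, the list without E2F1 and leaving out each replicate. Python 3.11.15, numpy 2.4.6, pandas 2.3.3, matplotlib 3.10.9, R 4.3.3 and limma 3.58.1 were used.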

Additional observations from a re-analysis of the deposited data

How the results depend on the processing

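Of 75 recomputed values, 66 moved by less than the members' median SD (0.058 log2 units) or, for counts, stayed within 1.5 times. That limit is wide beside the median differences between replicates, which were -0.028 to 0.079 as deposited. Changes of their sign after median centring stayed within it, so the 66 say little about these differences. Counts of 0 that stayed 0 are also among the 66. The number of members with a range over 0.3 log2 units was 0 as deposited and 1 after median centring, where CENPE reached 0.301. The number with a range over 0.2 units, a limit added after the data were seen, was 5 as deposited, after median centring and after cyclic loess, 6 after quantile normalisation, where CCNA2 reached 0.202, and 1 (without replicate 2 or replicate 3) to 4 (without replicate 1). CENPE had the widest range as deposited, after quantile normalisation and after centring, and after cyclic loess MCM5 had 0.287 and CENPE 0.286. Fewer arrays give smaller ranges by construction. Replicate 1 was the highest array for 3 members as deposited, 5 after quantile normalisation, 5 after cyclic loess and 1 after centring. It was the lowest for 9 as deposited and 18 after centring, which lowers replicate 1 against the others. Replicate 2 was the highest for 11 as deposited and 7 after quantile normalisation. Replicate 3 was the lowest for 8 as deposited and 3 after centring. For these counts the shares of all genes were computed from the deposited values alone, as given above. Replicate 3 was the highest for 24 to 27 members over these settings, against 35.2% of all genes as deposited and 40.6% after centring. It was above replicate 2 for 25 to 28 members, against 49.8% of all genes as deposited and 51.3% after centring. The order of all 3 arrays was the same in every setting for 23 of 38 members. The median SD was 0.058 to 0.064 under the normalisations, and 0.040 (without replicate 3) to 0.079 (without replicate 1). No paired analysis was possible because there was 1 group of arrays. The lists of other cell cycle genes and cell type markers were not run. Summarised values give no signal over background.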
